A study of Rana pirica with 14 samples.

Results

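In the tail of Rana pirica tadpoles, 93 of 15491 probe sets (0.6%) had all −Salam arrays on 1 side of every array of the other groups. The other groups of 3 arrays each set apart 73 to 96 probe sets in this way. Of the 93, 4 are described here. −Salam is the group in which larval salamanders had been kept with the tadpoles and then taken away. The 4 probe sets are annotated to elavl1.S, mettl7a.L, dpm1 (assigned to both dpm1.S and dpm1.L) and c19orf47.S. They were selected on these same arrays: of the 10 probe sets inside the study's level in a one-way test of the 5 groups, they are the 4 with all 3 −Salam arrays on 1 side of the other 11. They are 4 of 15611 probe sets on the array, of which 15491 read frog transcripts and 120 read added control transcripts. A further 3 probe sets carry the same gene names, 1 each for mettl7a.L, dpm1.L and dpm1.S, and these fell outside the study's level. No other probe set is annotated to elavl1 or c19orf47.

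The arrays were designed for Xenopus laevis, so that RNA of 1 frog species was read with probes for another. All tadpoles came from eggs of 1 pond, were 10 days old at the start, and gave tail tissue on day 8. In −Salam (n = 3 arrays) the tadpoles had 3 larval salamanders, Hynobius retardatus, in the aquarium for 4 days and then none for 4 days, and in Salam (n = 3) the salamanders stayed for all 8 days. In −Drago (n = 3) a caged dragonfly larva, Aeshna nigroflava, was present for 4 days and then removed for 4 days, and in Drago (n = 3) it stayed for 8 days. Cont tadpoles (n = 2) met no predator. The salamanders were free in the water and the dragonfly larva was in a cage, so kind of predator and manner of exposure cannot be told apart. By the methods, tissue of all tadpoles of a group was combined before RNA extraction, while the labels call the arrays biological replicates, so the arrays of a group may share 1 pool. The p-values given here therefore measure only the spread between arrays, which may be technical, and the small number of arrays limits their precision.

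The ELAVL1 protein, also called HuR, binds AU-rich stretches in messenger RNAs and is known for protecting many of them from decay. In human cells METTL7A is a methyltransferase-like protein of the endoplasmic reticulum and of lipid droplets. DPM1 is the catalytic subunit of the enzyme that loads mannose onto dolichol phosphate, and the product donates mannose to N-linked glycans, to O-mannosyl glycans and to GPI anchors. c19orf47 is named after an open reading frame of a human chromosome, and no role is stated for it here. The ending .L or .S names the copy on the long or the short chromosome of a Xenopus laevis pair, so it describes the probe set's design and not a gene copy of Rana pirica. By its identifier, the selected mettl7a.L probe set (suffix _a_at) is shared by transcripts of 1 gene and the selected dpm1 probe set (suffix _s_at) by several transcripts. Those of elavl1.S, of c19orf47.S and the 3 not selected (suffix _at) were designed to be unique.

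The study measured elavl1 with a second method, real-time PCR on cDNA of Rana pirica, and its primer pair is shown because it is the only sequence at hand that is tied to the frog's own transcript of a selected gene. Each primer is 24 bases long and is given 5′ to 3′.
RpiELAVL1-qF: gagtgcttgttgatcaggctactg
RpiELAVL1-qR: ttctgatgcacctggtggtttgtg
The PCR values, the probe sequences of the array and genome coordinates were not used here, so the pair only identifies the transcript.

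The values are log2 signals, centred so that each probe set has a median of 0 across the 14 arrays. A value of 0 is thus the middle array of that probe set, a difference of 1 is a doubling of signal on the linear scale, and the level of a transcript is not known. For the same reason the presence of tail tissue could not be checked from the level of its markers. A fold is 2 to the power of a log2 difference between group means, and a decrease carries a minus sign. For the 4 selected probe sets the values are a description and no test is given, because the selection used them.

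elavl1.S had values of -1.96, -2.10 and -1.63 in −Salam, against 0.60, 0.69 and -0.37 in Salam. In −Drago it had 0.14, 0.22 and 0.55, in Drago 0.30, -0.15 and 0.33, and in Cont -0.14 and -0.20. The 3 −Salam arrays were the lowest of the 14, and the nearest other array was the third of Salam, 1.27 above the highest −Salam array. elavl1.S averaged -1.90 ± 0.24 in −Salam (SD, n = 3) and -0.17 ± 0.05 in Cont (SD, n = 2), a log2 difference of -1.73 (SE 0.55) and a fold of -3.31. Against Salam, which averaged 0.31 ± 0.58 (SD, n = 3), the log2 difference was -2.20 (SE 0.49) and the fold -4.6. Means of the other groups rose in the order Cont, Drago, −Drago and Salam, and every neighbouring pair in that order overlapped. Only −Drago and Cont, which are not neighbours, were free of overlap, by 0.27.

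mettl7a.L had values of -1.77, -2.46 and -2.01 in −Salam, against 0.38, 0.85 and -0.05 in Salam. In −Drago it had 0.60, 0.05 and -0.16, in Drago -0.08, -0.15 and 0.51, and in Cont 0.51 and 0.57. Again the 3 −Salam arrays were the lowest, and the gap of 1.62 to the nearest other array, the third of −Drago, was the widest among the 15491 probe sets. mettl7a.L averaged -2.08 ± 0.35 in −Salam (SD, n = 3) and 0.54 ± 0.04 in Cont (SD, n = 2), a log2 difference of -2.63 (SE 0.56) and a fold of -6.17. Against Salam, at 0.39 ± 0.45 (SD, n = 3), it was -2.48 (SE 0.50) and the fold -5.57. The other 4 group means lay between 0.09 and 0.54, in the order Drago, −Drago, Salam and Cont, with overlap between all neighbours. Drago and Cont, which are not neighbours, were free of overlap by only 0.0006.

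dpm1 was the most variable of the 4 within −Salam, at -1.55, -2.74 and -2.49, against 0.03, 0.53 and -0.29 in Salam. Its −Drago values were -0.03, -0.85 and -0.18, those in Drago 0.88, 1.25 and 0.64, and those in Cont 0.76 and 0.33. The 3 −Salam arrays were the lowest, and the second −Drago array came within 0.70 of them. dpm1 averaged -2.26 ± 0.63 in −Salam (SD, n = 3) and 0.54 ± 0.30 in Cont (SD, n = 2), a log2 difference of -2.80 (SE 0.58) and a fold of -6.98. The log2 difference from Salam, at 0.09 ± 0.41 (SD, n = 3), was -2.35 (SE 0.52), a fold of -5.11, and the one from Drago, at 0.92 ± 0.31 (SD, n = 3), was -3.18 (SE 0.52), a fold of -9.09. Among the other groups, all 3 Drago arrays of dpm1 lay above all Salam arrays (by 0.11) and all −Drago arrays (by 0.67). The −Drago arrays lay below both Cont arrays (by 0.36). The one-way test that selected dpm1 had used these values as well, so they are a description only.

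c19orf47.S was the 1 probe set of the 4 that was higher in −Salam, at 2.23, 2.02 and 2.32, against 0.13, -0.01 and 0.11 in Salam. In −Drago it had -1.38, -1.42 and -0.65, in Drago -0.85, -0.08 and -0.84, and in Cont 0.01 and 0.69. The −Salam arrays were the highest, with a gap of 1.32 to the second Cont array. c19orf47.S averaged 2.19 ± 0.16 in −Salam (SD, n = 3) and 0.35 ± 0.48 in Cont (SD, n = 2), a log2 difference of 1.84 (SE 0.55) and a fold of 3.58. Against −Drago, at -1.15 ± 0.43 (SD, n = 3), the log2 difference was 3.34 (SE 0.49) and the fold 10.1. The 3 −Drago and the 3 Drago arrays all lay below all Salam and Cont arrays. For −Drago the gap was 0.64 to Salam and 0.66 to Cont, and for Drago it was only 0.07 and 0.09. These values are part of the pattern of c19orf47.S, and the one-way test that selected it had used them.

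**Figure D1:**
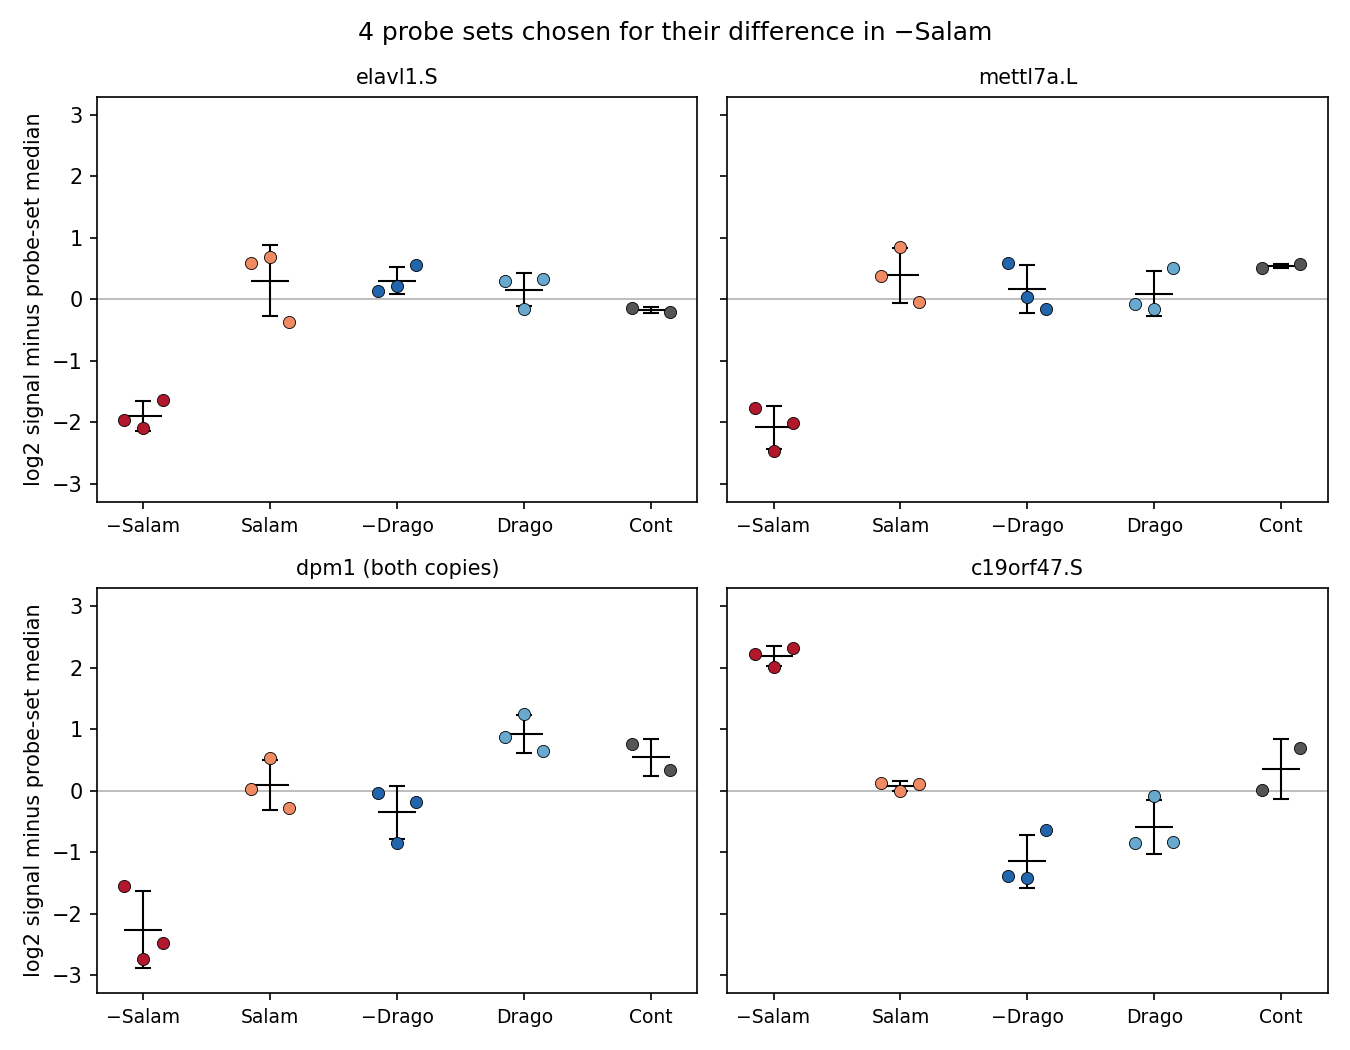
Centred log2 signal (vertical axis) of the 4 selected probe sets in −Salam, Salam, −Drago, Drago and Cont (horizontal axis); points are arrays, the wide bar is the group mean and the error bar 1 SD. The −Salam points are at -1.55 or lower in the panels of dpm1, elavl1.S and mettl7a.L and at 2.02 or higher in that of c19orf47.S, with no point of another group among them.

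Separation between a pair of the other groups was also counted over all probe sets, as a background that by itself shows no difference between groups. Over the 15491 probe sets the arrays were free of overlap in 10.2% for Salam and −Drago, in 10.3% for Salam and Drago, and in 10.6% for −Drago and Drago. With the 2 Cont arrays it was 20.1% for Salam, 20.5% for −Drago and 19.8% for Drago. Fewer arrays are more easily free of overlap, so the shares with Cont are not comparable with the others. Of the 6 pairs that leave out −Salam, 1 was separated for elavl1.S, 1 for mettl7a.L, 3 for dpm1 and 4 for c19orf47.S. The one-way test that selected the 4 probe sets also takes separation between these groups, so these counts are part of the selection.

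Against the mean of the other 4 groups, the log2 difference of −Salam was -2.05 (SE 0.39) for elavl1.S, -2.38 (SE 0.40) for mettl7a.L, -2.56 (SE 0.42) for dpm1 and 2.52 (SE 0.39) for c19orf47.S. In folds these were -4.13, -5.21, -5.9 and 5.73. In group means, the groups that still had a predator, or had lost the dragonfly larva, stood nearer to Cont than −Salam did. This was close to fixed by the selection, which took probe sets with the −Salam arrays beyond all others. For elavl1.S the log2 difference from Cont was 0.47 in Salam, 0.47 in −Drago and 0.33 in Drago, and for mettl7a.L it was -0.15, -0.38 and -0.45 in the same order (SE 0.55 to 0.56). For dpm1 these groups stood at -0.45 in Salam, -0.90 in −Drago and 0.38 in Drago (SE 0.58 each). For c19orf47.S they stood at -0.28, -1.50 and -0.94 (SE 0.55 each). With −Salam at 1.84 for c19orf47.S (SE 0.55), −Drago was only a little nearer to Cont, on the other side. All of these comparisons share the Cont arrays.

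**Figure D2:**
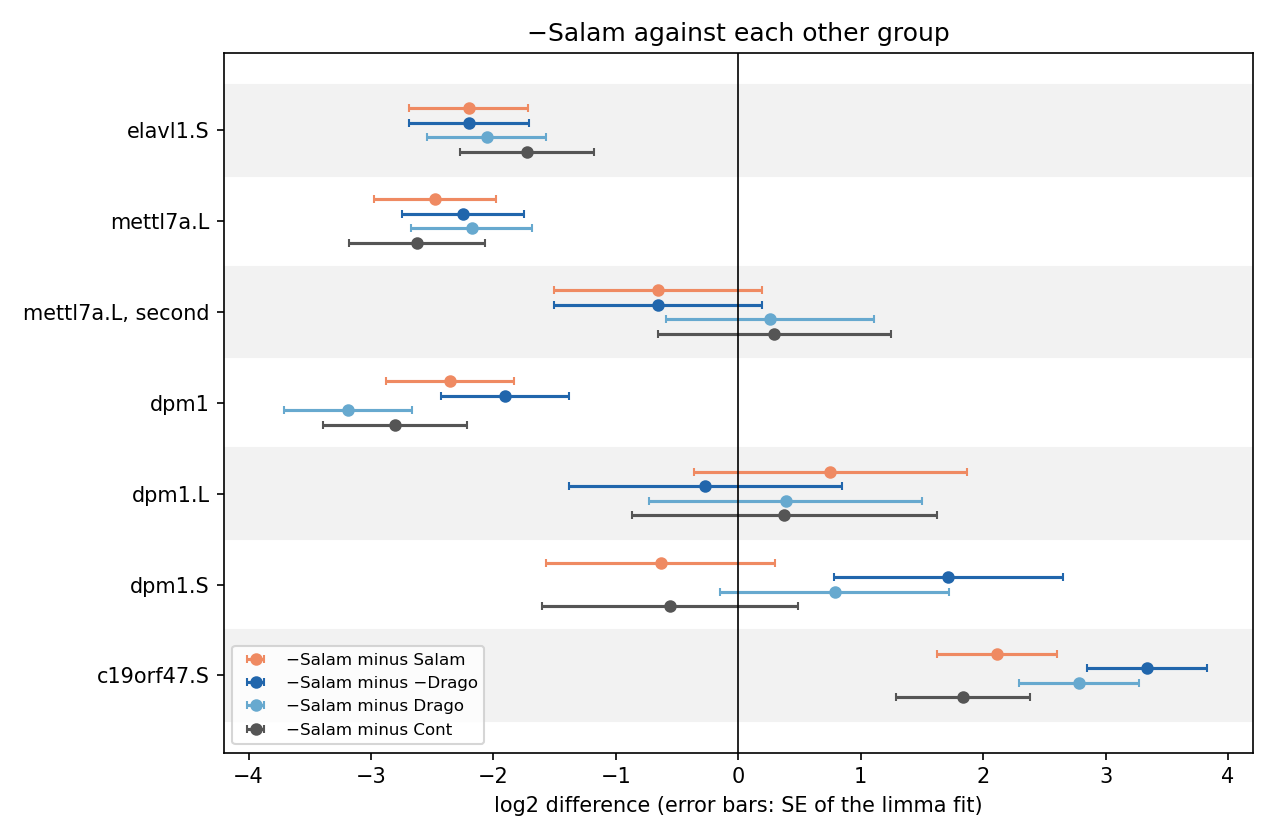
Log2 difference of −Salam from Salam, −Drago, Drago and Cont (horizontal axis; error bars are the SE of the limma fit) for the 4 selected probe sets and the 3 others of the same genes. All differences lie at -1.73 or below for dpm1, elavl1.S and mettl7a.L and at 1.84 or above for c19orf47.S, while those of the other 3 probe sets lie on both sides of 0.

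The pattern was then set against all probe sets. All −Salam arrays lay below all others in 51 of 15491 probe sets (0.329%), elavl1.S, mettl7a.L and dpm1 among them, and above all others in 42 (0.271%), c19orf47.S among them. −Salam was not singular in the number of probe sets that it set apart in this way, which was 93 in all, against 73 for Salam, 80 for −Drago and 96 for Drago. For the 2 Cont arrays against 12 it was 335, a count not comparable with the others because fewer arrays are more easily set apart. A gap of more than 1 on the log2 scale was found in 5 probe sets for −Salam, 4 for Salam, 1 for −Drago, 1 for Drago and 10 for Cont. The 5 of −Salam were mettl7a.L, c19orf47.S, trmt2a.S (1.28), elavl1.S and XB5795058.S (1.001), and dpm1 held the ninth place by its gap.

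By the size of the difference alone the 4 were less exceptional. In order of absolute log2 difference from the mean of the other groups, dpm1 was number 10 of 15491, c19orf47.S 13, mettl7a.L 24 and elavl1.S 87, and 7 probe sets with overlapping arrays differed by more than dpm1. What the 4 shared was a narrow spread between arrays of a group. Their residual SD was 0.34 for elavl1.S, 0.37 for mettl7a.L, 0.45 for dpm1 and 0.34 for c19orf47.S, against a median of 0.98 over all probe sets. A smaller SD was found in 3.12%, 4.09%, 7.41% and 3.19% of the probe sets, in the same order. The one-way test that selected them takes large differences over narrow spreads, so this spread is part of the selection. In that test F was 41.0 for c19orf47.S (second of 15611), 24.9 for mettl7a.L (sixth), 22.7 for elavl1.S (seventh) and 22.6 for dpm1 (eighth). The tenth and last probe set inside the study's level, dlgap5.S, had an F of 21.2 and the first outside it, sfrp5.L, 20.6.

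**Figure D3:**
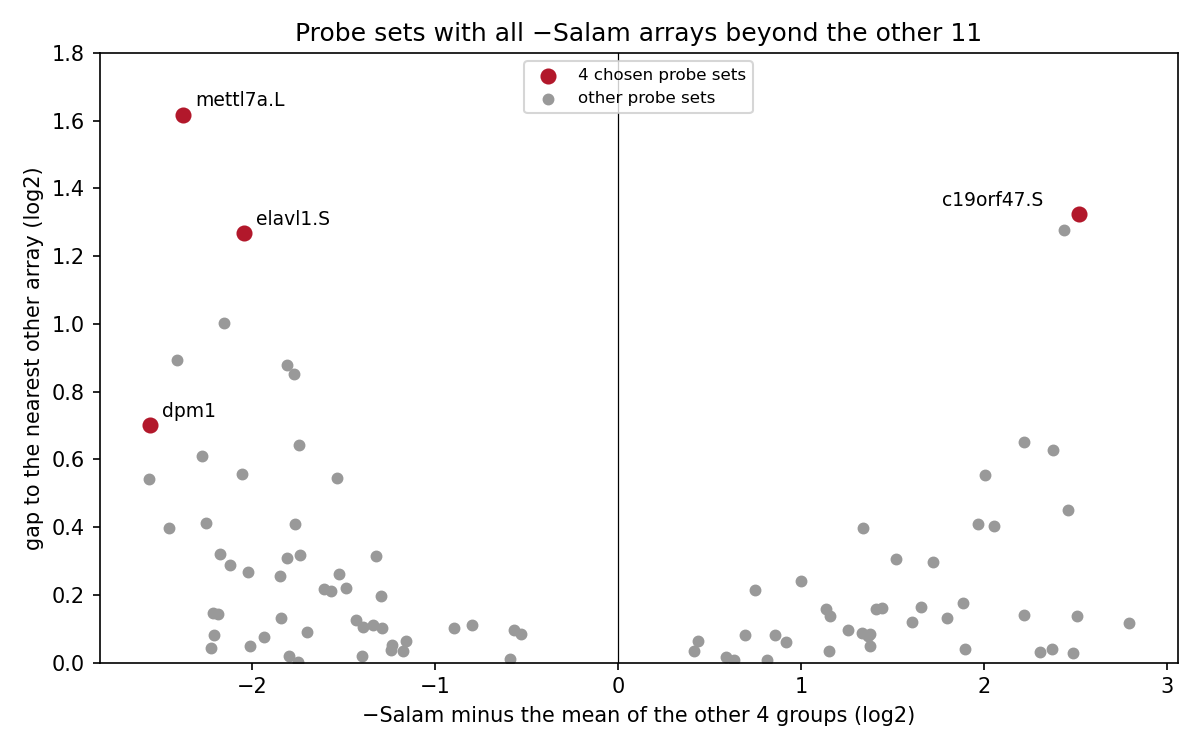
Gap between the −Salam arrays and the nearest other array (vertical axis, log2) against the difference of −Salam from the mean of the other 4 groups (horizontal axis, log2), for the 93 probe sets whose −Salam arrays all lay on 1 side. The selected probe sets, in red, take places 1, 2, 4 and 9 by gap.

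The other 3 probe sets of these genes were taken by gene name and were tested. In the one-way test they had fallen outside the study's level, with F of 0.18 for dpm1.L, 0.48 for the second mettl7a.L probe set and 1.68 for dpm1.S. In the limma fit over all 14 arrays, 0 of 15491 probe sets (0%) were called at an adjusted p under 0.05 in −Salam against the mean of the other groups, against Cont, against Salam or against −Drago. At an unadjusted p under 0.05, 354 were higher in −Salam (2.29%) and 502 lower (3.24%). Against that background none of the 3 other probe sets was called, adjusted or unadjusted.

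The second mettl7a.L probe set had values of 1.76, -0.85 and -0.28 in −Salam, against 1.10, 1.77 and -0.29 in Salam. Its −Drago values were -1.04, 1.88 and 1.76, those in Drago -0.16, -0.12 and 0.12, and those in Cont 0.16 and -0.33. The −Salam arrays fell among those of the other groups, 1 near the top and 1 near the bottom. Against the mean of the other groups the log2 difference was -0.19 (SE 0.68, 95% interval -1.64 to 1.27, limma adjusted p = 0.99). The selected probe set of the same gene stood at -2.38 (SE 0.40), a value that the selection had used, so the difference between both was not tested.

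The dpm1.L probe set had values of -1.01, 0.52 and 0.88 in −Salam, against -0.52, -0.59 and -0.76 in Salam. In −Drago it had 1.202, -1.65 and 1.64, in Drago 1.36, 0.70 and -2.83, and in Cont -1.71 and 1.22. Spread within groups covered nearly the whole range, and its residual SD of 1.60 was exceeded by few probe sets, since 96.85% had a smaller one. The log2 difference of −Salam from the other groups was 0.31 (SE 0.89, 95% interval -1.59 to 2.22, limma adjusted p = 0.988).

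For the dpm1.S probe set the −Salam values were 0.55, 0.53 and -0.56, against -0.46, 2.20 and 0.68 in Salam. Values in −Drago were -1.14, -1.91 and -1.59, those in Drago 1.01, -2.97 and 0.12, and those in Cont -0.12 and 1.58. Here all −Drago arrays lay below those of −Salam (by 0.57), Salam and Cont, but within the range of Drago. −Salam overlapped with Salam, Drago and Cont. Over all probe sets, arrays were free of overlap in 10.2% for Salam and −Drago and in 20.5% for −Drago and Cont. For −Salam and −Drago this share was not counted. Between the other groups of 3 arrays each it was 10.2% to 10.6%. The log2 difference of −Salam from the other groups was 0.33 (SE 0.75, 95% interval -1.27 to 1.93, limma adjusted p = 0.983), and that of −Drago from Cont was -2.28 (SE 1.05, limma adjusted p = 0.995). The selected dpm1 probe set, shared by both copies, stood at -2.56 (SE 0.42), again a value that the selection had used, and its difference from these probe sets was not tested.

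**Figure D4:**
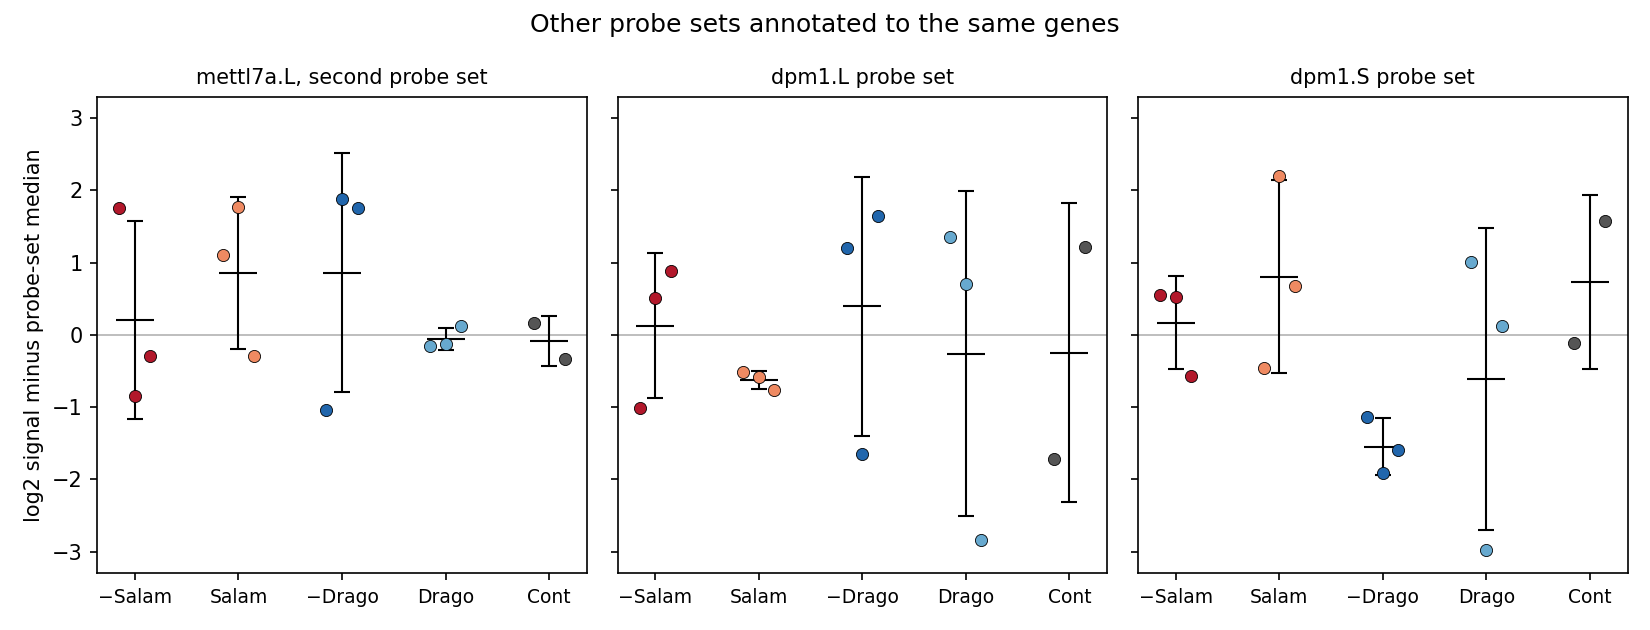
Centred log2 signal (vertical axis) of the 3 probe sets that carry the names mettl7a.L, dpm1.L and dpm1.S but were not selected, in −Salam, Salam, −Drago, Drago and Cont (horizontal axis); points are arrays, the wide bar is the group mean and the error bar 1 SD. In each panel the −Salam points overlap those of other groups.

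Array by array, probe sets of the same gene did not follow each other. Over the 14 arrays Pearson's r was 0.13 between both mettl7a.L probe sets, -0.10 between dpm1 and the dpm1.L probe set, -0.04 between dpm1 and the dpm1.S probe set and -0.09 between the dpm1.L and dpm1.S probe sets. Without the −Salam arrays, which the selection had used, the values over 11 arrays were -0.06, 0.10, 0.14 and -0.07 in that order. This lack of a shared course was general on the array. Among 2712 pairs of probe sets with 1 and the same symbol, from 1293 symbols, the median r was 0.01 (quartiles -0.20 and 0.20), 49.3% were negative, and 109 (4.02%) exceeded 0.5. For the 658 pairs whose identifiers differ only in their last part, as those of both mettl7a.L probe sets do, the median was 0.02. The points of each r are the same 14 arrays, and with the level lost it is unknown how many of these probe sets were above background with frog RNA of another genus.

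**Figure D5:**
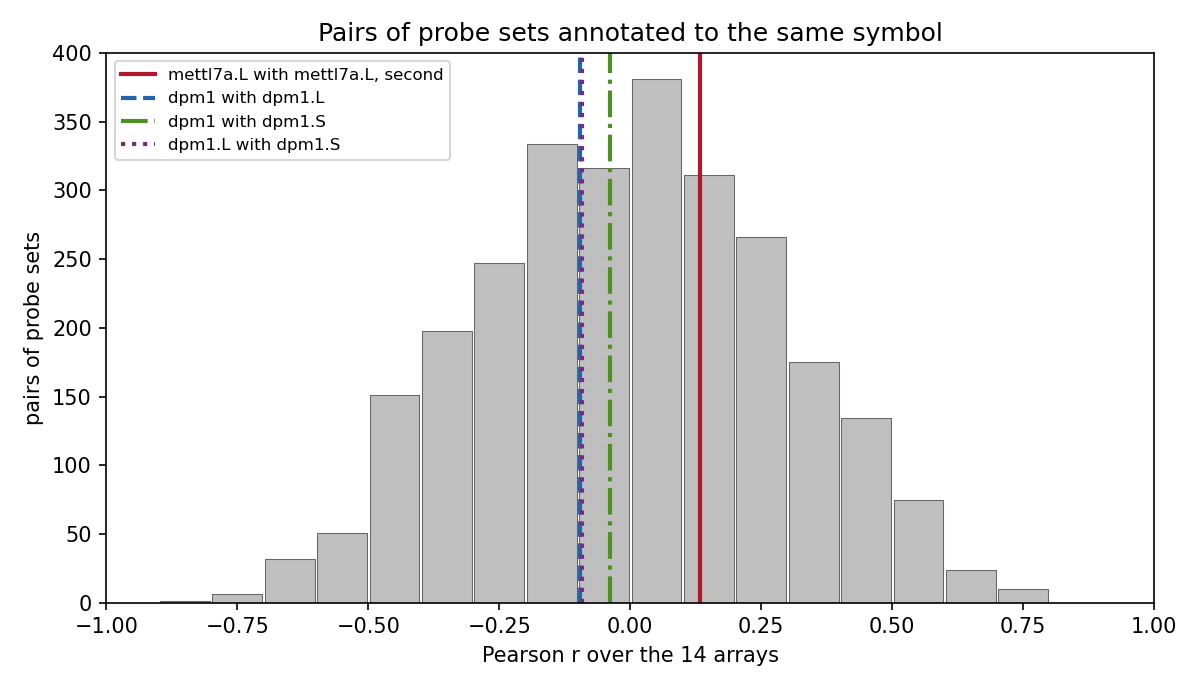
Number of probe set pairs with the same gene symbol (vertical axis) by their Pearson r over the 14 arrays (horizontal axis); vertical lines mark the mettl7a.L and dpm1 pairs. The 4 lines, from -0.10 to 0.13, fall in the middle of the grey distribution, whose median is 0.01.

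The high correlations among the 4 selected probe sets rested on the −Salam arrays. Over the 14 arrays r was 0.91 between elavl1.S and mettl7a.L, 0.81 between elavl1.S and dpm1 and 0.87 between mettl7a.L and dpm1, and it was -0.87, -0.80 and -0.70 between c19orf47.S and these 3. These values follow from the selection. Over the 11 other arrays the same pairs had r of 0.21, -0.11 and 0.11, and c19orf47.S had -0.30 with elavl1.S, 0.20 with mettl7a.L and 0.34 with dpm1.

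Among probe sets with 1 symbol, the one most like elavl1.S was gna11.S, the alpha subunit of a heterotrimeric G protein, with r = 0.96 over 14 arrays and 0.70 over the 11 without −Salam. It was also the most like mettl7a.L (0.92 and 0.26) and the most opposed to c19orf47.S (-0.87 and -0.41). gna11.S ran from -2.21 to -1.46 in −Salam, below the range of -0.58 to 0.48 elsewhere. After mettl7a.L and elavl1.S themselves, xndc1.l came next for elavl1.S (0.89, and 0.56 without −Salam) and for mettl7a.L (0.88 and 0.53). The tRNA methyltransferase gene trmt2a.S was most opposed to mettl7a.L (-0.85), at 1.76 to 2.45 in −Salam and -1.26 to 0.48 elsewhere. Without −Salam its r with mettl7a.L was 0.01.

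For dpm1 the most alike after mettl7a.L were XB5795058.S (0.83) and hadh.L (0.82), which encodes a mitochondrial enzyme of fatty acid oxidation, and the most opposed was the zinc finger gene znf182 (-0.85). For c19orf47.S they were eif4ebp2.S (0.81), a repressor of cap-dependent translation, lrrc59.S (0.78) and smc2.L (0.76), a condensin subunit. Not all of these share the −Salam pattern, since the arrays of hadh.L, znf182, eif4ebp2.S and lrrc59.S overlapped between −Salam and the other groups. Without −Salam, r with c19orf47.S was 0.84 for lrrc59.S, 0.70 for eif4ebp2.S and 0.31 for smc2.L. With dpm1 it was 0.02 for XB5795058.S, 0.60 for hadh.L and -0.65 for znf182. Each likeness was picked as the highest or lowest among all probe sets with 1 symbol, over only 14 points.

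Relatives and partners of the 4 genes were then read from lists of the pathways in which they act, without the 4 selected probe sets. The dpm1.L and dpm1.S probe sets stayed in the glycosylation list, and the second mettl7a.L probe set in the methyltransferase-like list. Of 62 probe sets for 37 genes of AU-rich element binding and mRNA decay, the setting of elavl1, 0 were called in −Salam against the other groups, as over all probe sets (0%). At an unadjusted p under 0.05, 2 of the 62 were higher and 1 lower, where 2.29% were higher and 3.24% lower over all probe sets. Their median log2 difference was -0.02, against 0.01 over all probe sets. The neuronal relatives elavl3.L, at -0.01 (SE 0.43, limma adjusted p = 0.999), and elavl4.L, at 0.43 (SE 0.53, limma adjusted p = 0.967), were not called. The smallest p of the list belonged to edc4.L, an enhancer of mRNA decapping, at a log2 difference of 2.07 (SE 0.57, limma adjusted p = 0.70). Its −Salam values were 1.96, 1.70 and 1.30, of which only the first lay above the range of -1.80 to 1.76 elsewhere. tial1.L, another AU-rich element binder, came second at -1.36 (SE 0.57, limma adjusted p = 0.902). It was not lowest in −Salam, since the mean of tial1.L was -1.61 in Salam, and −Salam stood 0.25 (SE 0.71) above Salam.

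Of 40 probe sets for 31 genes of dolichol-linked glycosylation and GPI anchors, the setting of dpm1, 0 were called (0% over all probe sets), and 1 was higher and 1 lower at an unadjusted p under 0.05 (2.29% and 3.24% over all probe sets). The median log2 difference was 0.04. The partner subunit gene dpm2.L had 0.59, 0.56 and 1.25 in −Salam against -2.03 to 1.37 elsewhere, a log2 difference of 1.29 (SE 0.60, limma adjusted p = 0.902). mpdu1.S, which is needed to use the mannose donor, stood at -0.34 (SE 0.62, limma adjusted p = 0.98), and tusc3.L, a subunit of the oligosaccharyltransferase, at -1.57 (SE 0.58, limma adjusted p = 0.881).

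The 10 probe sets for 10 methyltransferase-like genes, mettl7a included, gave 0 calls (0% over all probe sets). None had an unadjusted p under 0.05, where 2.29% were higher and 3.24% lower over all probe sets. Their median log2 difference was -0.16. The mRNA adenosine methyltransferase mettl3.L stood at -1.47 (SE 0.73, limma adjusted p = 0.914) and mettl18.S at -0.95 (SE 0.82, limma adjusted p = 0.943). For lipid droplets, 13 probe sets of 8 genes gave 0 calls, none at an unadjusted p under 0.05, and a median of 0.35. The shares over all probe sets are those just given, and in lists this small a count of 0 is near them. In the lipid droplet list, the droplet proteins aup1.S at 0.98 (SE 0.57) and cidea.S at 1.21 (SE 0.81) had the smallest p, both with a limma adjusted p of 0.932. elavl2, dpm3 and mettl7b matched no probe set.

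Markers of the tissues of a tail were read beside these results. No probe set of muscle (25), epidermis (13), notochord and cartilage (8), erythrocytes (11), neural tissue (19) or immune cells (10) was called in −Salam against the other groups, and none had all −Salam arrays on 1 side of the others. At an unadjusted p under 0.05, 1 muscle, 1 erythrocyte and 1 neural probe set were higher and 2 neural probe sets lower. Over all probe sets 0% were called and 0.6% had all −Salam arrays on 1 side. At an unadjusted p under 0.05, 2.29% of all probe sets were higher and 3.24% lower. The median log2 differences of the 6 lists, in the order first named, were 0.19, -0.38, -0.17, 0.03, 0.14 and -0.23. Epidermis markers had the lowest median. It was -0.91 against Cont, -0.36 against Salam and -0.05 against −Drago. In each of these comparisons 0 of the 13 probe sets had an unadjusted p under 0.05. The part of epidermis in the 4 patterns was not tested. In tissue of mixed cells, fewer cells of a type and less RNA per cell cannot be told apart.

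Apart from the groups, 6 arrays had a high signal of the added poly-A control transcript Dap, among them 1 of −Salam, and 8 a low one, among them 2 of −Salam and all 3 of −Drago. Within each set of arrays the direction of the 4 selected probe sets was fixed by their selection, and only 1 −Salam array was among the 6, so the sizes are given as a description. The log2 difference of −Salam from the other arrays was -2.21 among the 6 and -1.98 among the 8 for elavl1.S, -2.08 and -2.49 for mettl7a.L, -2.24 and -2.55 for dpm1, and 2.39 and 2.75 for c19orf47.S. For the probe sets that were not selected it was -0.86 and 0.90 for dpm1.L, 1.21 and -0.92 for the second mettl7a.L probe set, and 0.62 and 0.36 for dpm1.S.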

How the data were processed

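Tail RNA of Rana pirica was hybridized to Xenopus laevis genome arrays. Per the methods, the authors read scans into GCOS, computed MAS5 signals in GeneSpring and set the baseline of each probe set to its median over all samples, and they left out 1 control array. The deposited values are on the log2 scale with a median of 0 for each probe set over the 14 arrays, so no filter on low signal or background was possible, and a faint probe set can vary as widely as a bright one changes. Groups were taken from the labels.

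A limma (3.58.1, R 4.3.3) model with 5 group means took in 15491 probe sets and 14 arrays (9 residual and 5.53 prior degrees of freedom), two-sided, with Benjamini-Hochberg adjustment over all of them at 0.05. The 120 added control transcripts were left out. Descriptions were computed in Python 3.11.15. The probe annotation gave 1 symbol for 9304 probe sets, several for 195 and none for 5992, with symbols that can be old.

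The 4 probe sets, the lists of genes and the tests were chosen with earlier results of these data known. Named genes were the 4, all probe sets of the same genes, for each of the 4 the 3 most alike and the 1 most opposed by Pearson's r, the direct relatives, and the 2 smallest p of each pathway list. Other probe sets named by gap, control signal or rank were picked after their values were seen. Alternatives were array centring, quantile normalization, the replicate number as a block, the poly-A control signal as a covariate, an ordinary test without moderation of the variance, only the groups compared, control transcripts kept, and leaving out each array in turn.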

Additional observations from a re-analysis of the deposited data

Results flagged for a closer look

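For elavl1.S, −Salam and −Drago lay on opposite sides of Cont. All 3 −Salam arrays were below both Cont arrays, with a log2 difference of -1.73, and all 3 −Drago arrays were above them, with a log2 difference of 0.47. For c19orf47.S it was the other way round, at 1.84 in −Salam and -1.50 in −Drago, and it was likewise at 1.84 in −Salam and -0.94 in Drago, whose 3 arrays were also all below both Cont arrays. None of these differences between groups was tested, since the selection had used the values. Both removal groups stood on opposite sides of both Cont arrays in 74 of 15491 probe sets (0.478%). The like share for −Salam and Drago was not counted. Drago and Cont alone were free of overlap in 19.8% of probe sets, and for c19orf47.S the gap between them was 0.09. No group has 4 or more arrays, so no single array was examined as standing apart from its group.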

How the results depend on the processing

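The direction of the 4 selected probe sets was fixed by their selection, which also favoured large differences. Their sizes are therefore given as a description, and fits without 1 array still use the other arrays that had selected them. With each array left out in turn, the difference of −Salam from the mean of the other groups ran from -2.18 to -1.94 for elavl1.S, from -2.54 to -2.19 for mettl7a.L, from -2.92 to -2.32 for dpm1 and from 2.43 to 2.60 for c19orf47.S. The count of called probe sets stayed at 0 in every comparison and alternative except under an ordinary test without moderation of the variance, at the same adjusted p, which called 4 for −Salam against the mean of the other groups and 1 for −Salam against −Drago. The 4 called against the mean of the other groups were the 4 selected probe sets themselves. This count is no evidence on them, because the values of these arrays had chosen them. Of the 93 probe sets with all −Salam arrays on 1 side, 5 were left at a gap of at least 1. With 1 array left out the count ran from 109 to 427, its highest values (402 to 427) coming without 1 of the −Salam arrays, when 2 are set against 11. Alternatives for the probe sets that were not selected were added after the data had been seen, and the sign turned for 2 of the 3. The second mettl7a.L probe set ran from -0.96 to 0.34, being 0.34 without the second and 0.06 without the third −Salam array. The dpm1.L probe set ran from -0.0645 to 0.88, being -0.05 without the first Cont array, -0.01 without the third Drago array and -0.0645 without the third −Salam array, while dpm1.S kept its sign and ran from 0.03 to 0.70.

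With the replicate number of the labels as a block, 0 probe sets were called and the differences were -2.05, -2.37, -2.54 and 2.51 for elavl1.S, mettl7a.L, dpm1 and c19orf47.S. Deviations from the group means had an r of -0.02 to 0.02 over 26 pairs of arrays of the same number. Over 52 pairs of other numbers r was -0.03 to 0.03. The Dap signal was high in array 1 of every group except −Drago, mixed in arrays 2, and low in every array 3. The paper calls the array it left out control 1, while the labels number the Cont arrays 1 and 2. The Cont numbers may therefore not match those of the other groups. Whether the numbers mark a batch was not tested. A fit of only the groups compared has no meaning for −Salam against all others and was not run there.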
